A study of Mus musculus with 8 samples.

Results

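The amino acid carriers of the mouse kidney were described in 2 mutant genotypes and in wild type. They were taken as all genes whose symbol starts with Slc1a, Slc3a, Slc6a, Slc7a, Slc36a, Slc38a or Slc43a followed by digits, with the probe set of the highest mean for each gene. This rule gave 63 of 22180 genes on the array, of which 60 are carriers or their subunits and 3 are genes named for the strand opposite a carrier (Slc36a1os, Slc6a19os and Slc7a6os). RNA was measured on 1 array per mouse in whole kidneys that had been frozen at 2 months of age. The groups were 3 Col4a3-/- mice (single mutants), 3 Col4a3-/-OPN-/- mice, which lack osteopontin besides Col4a3 (double mutants), and 2 wild type mice. Loss of Col4a3, a collagen chain of the glomerular filter, is used in mice as a model of Alport syndrome, and osteopontin is a matrix protein and cytokine released by injured tubules. Strain, litter and sex are not given in the labels used here, and no mouse lacked osteopontin alone. Levels below are log2 signals of a probe set, and differences are differences of such log2 levels.

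Amino acids that pass the glomerular filter are taken back almost completely by the proximal tubule. Carriers of the brush border, the membrane that faces the urine, bring them into the cell, and exchangers and uniporters of the basolateral membrane release them to the blood. Several carriers work as a pair of a heavy chain, which brings the complex to the membrane, and a light chain, which does the transport. The rBAT heavy chain (Slc3a1) serves the brush border and the 4F2hc heavy chain (Slc3a2) the basolateral side. Other members carry glutamine for ammonia production, or osmolytes such as taurine and betaine, or serve nutrient supply in cells of many kinds.

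The arrays were of like overall signal, with medians between 5.18 and 5.25. Sex was read from the arrays and differed between the groups. Xist, made from the silenced X chromosome of females, measured 8.85 to 10.02 on 4 arrays and 4.52 to 4.64 on the others, while the Y-linked Eif2s3y measured 4.40 to 4.56 on those 4 arrays and 7.69 to 8.06 on the others. By this reading single mutants 1 and 3 and double mutants 1 and 2 were female. Single mutant 2, double mutant 3 and both wild type mice were male. Counts over the members are therefore given from a fit of the 3 genotypes and from a fit in which sex was a further term. Differences of single genes from wild type are those with the sex term unless stated otherwise. That term assumes the same sex effect in every group and is estimated within the mutants, since there was no wild type female. Differences from wild type with this term therefore rest largely on the male mutants, 1 of each genotype. Col4a3 itself measured 6.60 to 7.67 in the single mutants and 6.13 to 7.60 in the double mutants, against 8.77 and 8.42 in wild type. The sources used here do not say whether its probes lie in the deleted part.

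Markers of the kidney's cell types were measured beside the carriers, as the mean of each marker list on each array. The 9 measured proximal tubule markers all passed the filter on low values. Their mean was 10.82, 9.57 and 11.09 in single mutants 1 to 3, and 10.73, 10.48 and 10.46 in double mutants 1 to 3, against 11.18 and 11.23 in wild type. Macrophage markers (7 of 10 above the filter) ranged from 7.16 to 8.71 in single mutants and from 8.03 to 8.26 in double mutants, against 6.22 and 6.41 in wild type. Fibroblast markers (7 of 8) ranged from 8.11 to 9.48 and from 8.70 to 9.20 in the single and the double mutants, against 7.14 and 7.21 in wild type. Single mutant 2 had the lowest proximal tubule mean and the highest macrophage and fibroblast means of the 8 arrays. Double mutant 3, the other male mutant, had the lowest means for loop of Henle and distal tubule (8.73), collecting duct (7.13) and endothelium (8.11). Its podocyte mean of 6.72 was level with that of wild type 2, at 6.73. Markers of adrenal gland, skeletal muscle, fat and liver were all below the filter (0 of 5, 0 of 4, 0 of 4 and 0 of 4). The part of these shifts in the results that follow was not tested. In whole kidney RNA, fewer cells of a type and less RNA per cell cannot be told apart.

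Of the 63 members, 28 (44.4%) had a mean above the filter, the 75th percentile of all probe sets at 6.64, as did 32.2% of all genes. All 3 members of the cystine and dibasic system of the brush border passed (Slc3a1, Slc7a9 and Slc7a13). So did 6 of 8 carriers of neutral and imino acids (the Slc36 family with Slc6a18, Slc6a19, Slc6a20a and Slc6a20b) and 6 of 11 Slc38 carriers. The same held for 3 of 6 genes of 4F2hc and its light chains, 3 of 5 carriers of osmolytes, creatine and GABA, and 2 of 3 Slc43 uniporters. Of 5 acidic amino acid carriers only the epithelial Slc1a1 passed, and of 10 carriers of monoamines, glycine and proline and orphans of the Slc6 family only Slc6a15 passed. Slc1a5 of 2 ASC carriers, Slc7a12 of 7 cationic carriers and orphan Slc7 genes, and Slc7a6os of 3 opposite-strand genes completed the 28. The other 35 members were not tested, and their values lay between 4.35 and 7.14 on all arrays. Just inside the filter were Slc38a1, Slc6a15 and Slc7a6os with means of 6.65, 6.90 and 6.90, and just outside it Slc1a4, Slc38a6 and Slc7a5 with 6.58, 6.44 and 6.39.

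In the fit of the 3 genotypes no carrier passed in any comparison, and with the sex term 10 did in 1 or both mutants, 9 of them lower and 1 higher than in wild type. Without the sex term 0 of 28 members were higher and 0 lower in the single mutant than in wild type with limma (adjusted p under 0.05), beside 0.014% higher and 0.014% lower of all 7145 genes tested. The double mutant had 0 higher and 0 lower members, against 0.056% and 0.028% of all genes. At an unadjusted p under 0.05 there were 2 higher and 2 lower members in the single mutant, and 5 higher and 2 lower in the double mutant. The shares of all genes at that level were 9.34% and 13.8% in the single mutant, and 8.83% and 12.8% in the double mutant. The median difference of the 28 members was -0.25 in the single mutant, beside -0.07 over all genes tested, and -0.22 in the double mutant, beside -0.08.

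With the sex term, 0 members were higher and 6 lower in the single mutant than in wild type, where 7.31% of all genes tested were higher and 19.9% lower. The double mutant had 1 higher and 7 lower members, where 6.4% of all genes were higher and 17.8% lower. The members' share that was lower, 6 and 7 of 28, was thus near that of all genes, while their median difference was -0.51 and -0.48 beside -0.15 and -0.15 over all genes. Slc7a13, Slc1a1, Slc38a3 and Slc3a1 passed in both mutants, Slc7a7 and Slc43a2 in the single mutant, and Slc6a13, Slc7a8, Slc6a20a and, as the 1 higher member, Slc38a1 in the double mutant. The split moved with the scaling of the arrays. After quantile normalization the single mutant had 3 higher and 5 lower members (12.4% and 13% of all genes) and the double mutant 4 and 4 (10.3% and 10.6%). After cyclic loess these were 3 and 5 (12.9% and 13.1%), and 4 and 3 (11.2% and 10.9%). The median difference over all genes was then -0.0104 and -0.0292 with quantile normalization, and -0.0075 and -0.0126 with cyclic loess, in the single and the double mutant. The counts also rest on single arrays. Without single mutant 2, the group's male, no member and no other gene passed in the single mutant and 5 members passed in the double mutant. Without wild type 2, the only member to pass in either mutant was Slc7a12, and without wild type 1, 4 passed in the single and 2 in the double mutant. Without double mutant 3 the counts were 12 and 13, and without single mutant 3 they were 10 and 7. Most shares of all genes in the fits with an array left out are not given here. Nothing particular to the members is read from these counts. Over 17 other settings each, Slc6a20a did not pass in 12, Slc7a8 in 10, Slc6a13 and Slc43a2 in 9 and Slc7a7 in 5, and Slc7a13, Slc1a1, Slc38a3, Slc3a1 and Slc38a1 in 1 to 4, and all kept their direction.

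**Figure D1:**
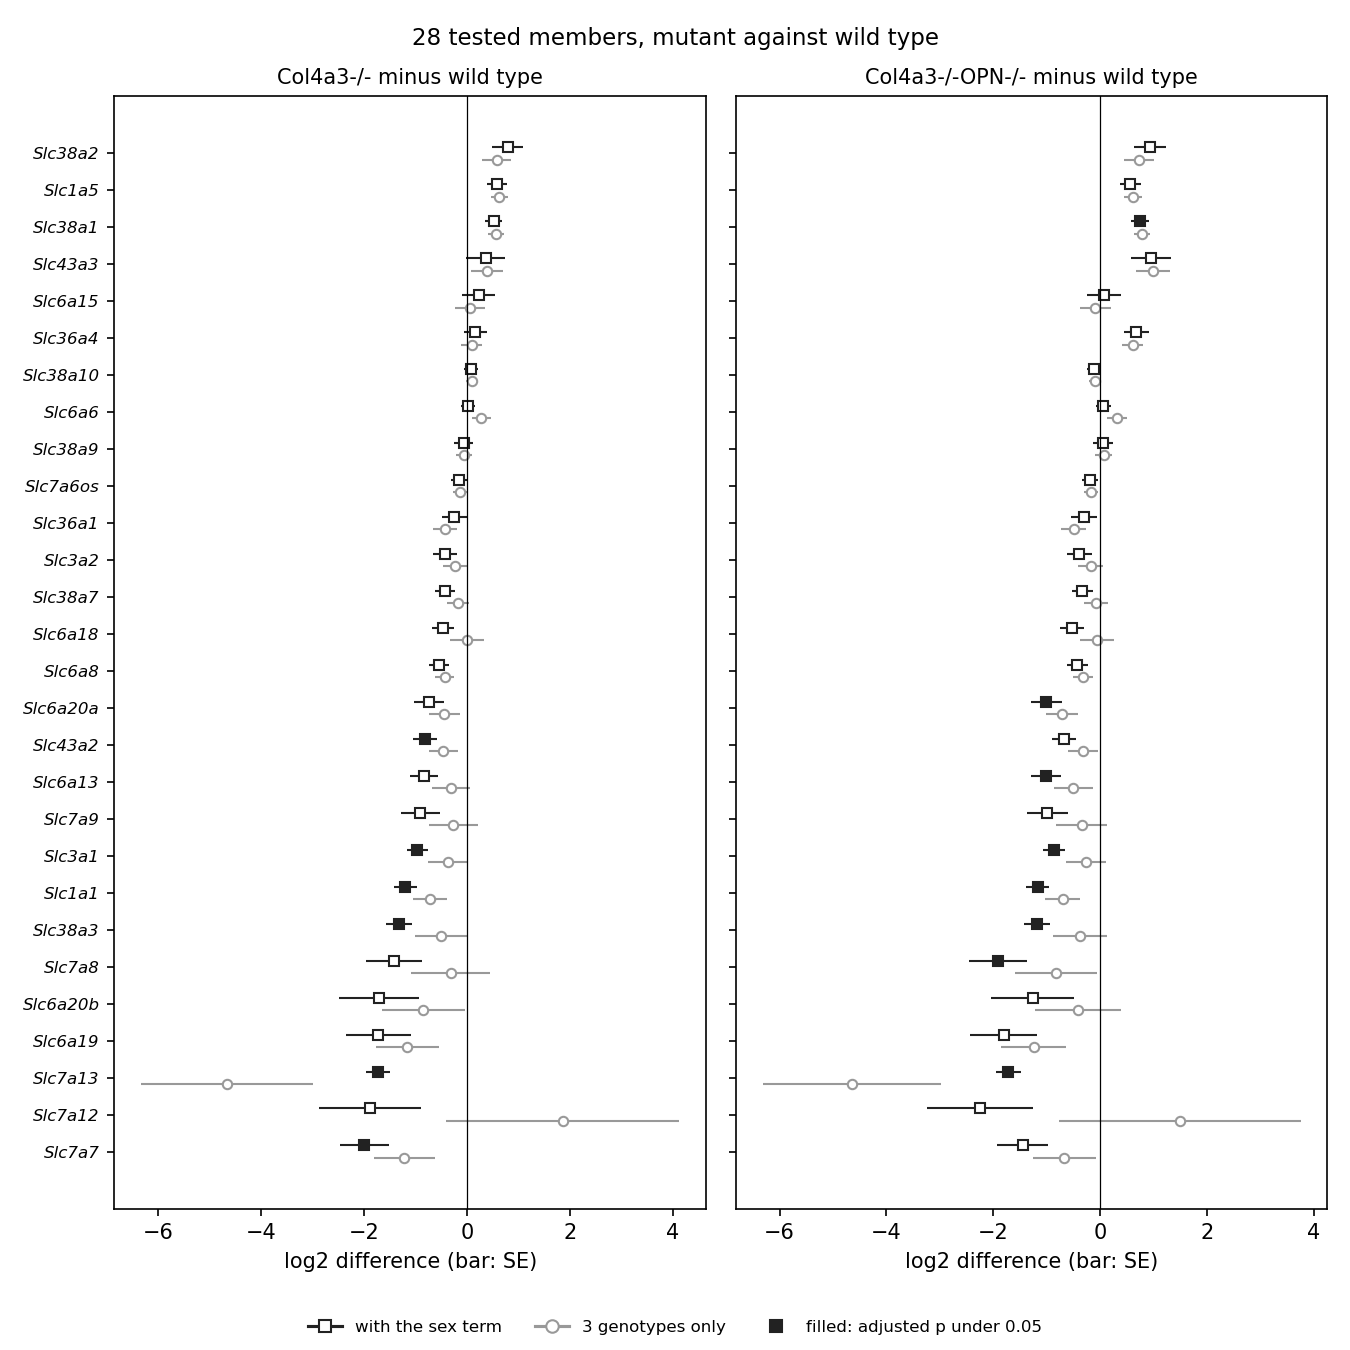
Differences from wild type (log2, horizontal axis) of the 28 tested members in Col4a3-/- (left) and Col4a3-/-OPN-/- kidneys (right), with the sex term (black squares) and with the 3 genotypes only (grey circles). Bars are SE and filled symbols passed at an adjusted p under 0.05: 6 members on the left and 8 on the right, all of them with the sex term. Slc7a12 lies above 0 in the fit of the 3 genotypes and below 0 with the sex term.

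In the brush-border system for cystine and dibasic amino acids, Slc7a13 and Slc3a1 passed as lower in both mutants with the sex term. Slc7a13 (AGT1) is a light chain of the late proximal tubule that pairs with rBAT and is known in the mouse kidney for a higher level in males. It measured 4.89, 9.18 and 5.30 in single mutants 1 to 3 and 4.78, 5.01 and 9.62 in double mutants 1 to 3, against 11.05 and 11.20 in wild type. All 6 mutants lay below wild type. Within the mutants both males lay far above all 4 females. The mean of Slc7a13 over all arrays, 7.63, lay above the filter at 6.64. Its means in the single and the double mutants, 6.46 and 6.47, lay below the filter, as did all 4 females. Its place among the tested genes thus rests on its high levels in wild type. In the fit of the 3 genotypes the differences were -4.67 (SE 1.66, adjusted p = 0.161) in single mutants and -4.65 (SE 1.66, adjusted p = 0.172) in double mutants. The sex term gave -1.73 (SE 0.23, adjusted p = 0.00758) in the single and -1.72 (SE 0.23, adjusted p = 0.00841) in the double mutant, which is 3.32-fold and 3.29-fold lower. These rest on the males, 1 mutant of each genotype, whose differences from the mean of the wild type males were -1.95 and -1.50. The large difference without the sex term holds 2 female mutants of 3 in each group against male wild type mice, so that sex and genotype cannot be told apart in it.

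Slc3a1 encodes rBAT, the heavy chain whose loss causes the kidney stone disease cystinuria. Its level was 11.95, 10.67 and 11.88 in single mutants 1 to 3 and 11.72, 11.85 and 11.23 in double mutants 1 to 3, against 11.83 and 11.90 in wild type. The 4 female mutants were at the level of the male wild type mice, and the 2 male mutants were the lowest arrays. Slc3a1 was lower when sex was modelled, with differences of -0.97 (SE 0.20, adjusted p = 0.016) in single and -0.87 (SE 0.20, adjusted p = 0.0232) in double mutants. Without the sex term they were -0.37 and -0.27 (adjusted p = 0.561 and 0.708). Slc7a9 (b0,+AT), the light chain that pairs with rBAT along the early proximal tubule, did not pass, with differences of -0.91 (adjusted p = 0.113) and -0.99 (adjusted p = 0.0951). It measured 7.25 in the male single mutant and 8.22 to 9.11 on the other 7 arrays.

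Slc1a1 (EAAC1) takes up glutamate and aspartate at the proximal tubule brush border, and Slc38a3 (SNAT3) takes up glutamine on its basolateral side for the making of ammonia. Slc1a1 measured 10.11, 9.02 and 10.12 in single mutants 1 to 3 and 9.92, 9.85 and 9.56 in double mutants 1 to 3, against 10.36 and 10.59 in wild type. All 6 mutants lay below both wild type mice, females included, and the male single mutant was the lowest. With the sex term the differences were -1.20 (SE 0.22, adjusted p = 0.0118) in the single and -1.17 (SE 0.22, adjusted p = 0.0142) in the double mutant, and without it -0.72 and -0.70 (adjusted p = 0.229 and 0.258). Slc38a3 measured 9.39, 7.78 and 9.47 in the single mutants and 9.21, 9.35 and 8.50 in the double mutants, against 9.52 and 9.26 in wild type. Here the females overlapped wild type and the male mutants were low. With sex modelled, Slc38a3 was lower by -1.32 (SE 0.25, adjusted p = 0.012) in single mutants and by -1.18 (SE 0.25, adjusted p = 0.0175) in the double mutant. Without the sex term these differences were -0.51 and -0.37 (adjusted p = 0.544 and 0.69).

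**Figure D2:**
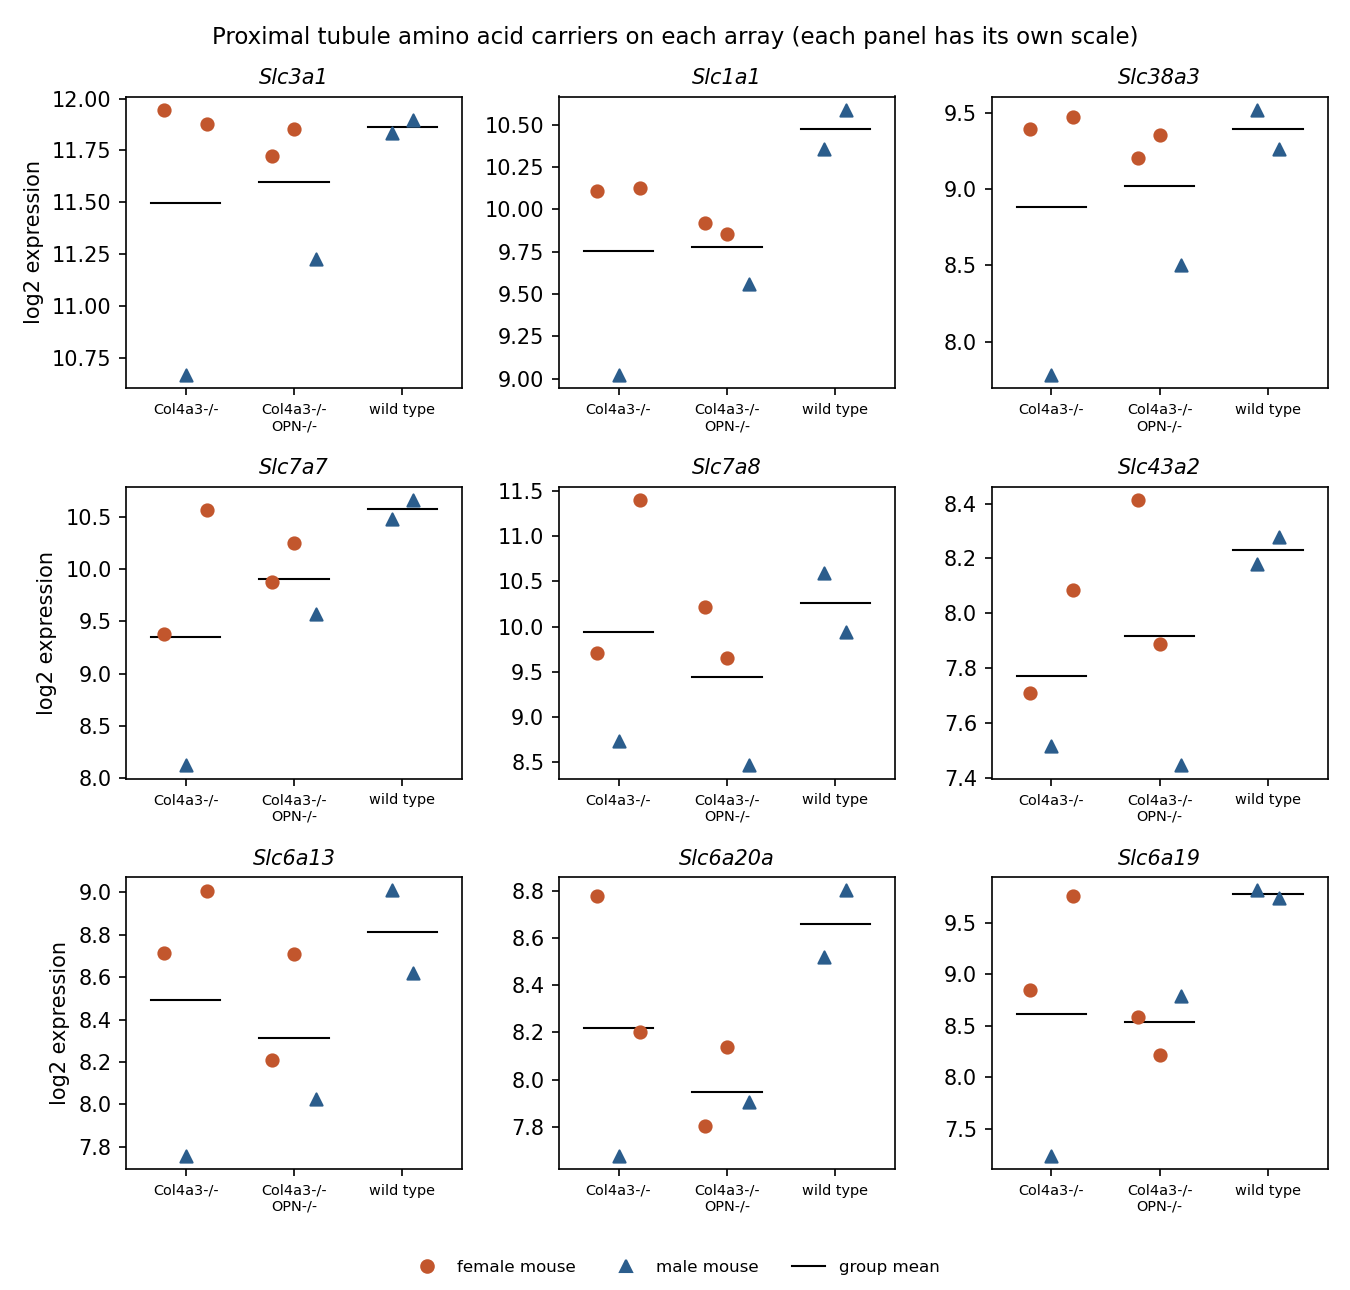
Levels (log2 expression, each panel on its own scale) of 9 amino acid carriers of the proximal tubule in Col4a3-/-, Col4a3-/-OPN-/- and wild type kidneys, 1 point per array, with female mice as circles, male mice as triangles and lines at the group means. In Slc3a1 and Slc38a3 the male mutants are the low points and the females lie near wild type, whereas in Slc1a1 all mutants lie below wild type.

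Of the 4 members lower in both mutants with the sex term, RefSeq promoter windows were at hand for Slc1a1 and Slc3a1, and they are shown because these members were called together. Each window covers the 250 bases before the start of the gene on the assembly GRCm38.p6, on the plus strand, at chr19:28834885-28835134 for Slc1a1 and chr17:85028097-85028346 for Slc3a1.
Slc1a1: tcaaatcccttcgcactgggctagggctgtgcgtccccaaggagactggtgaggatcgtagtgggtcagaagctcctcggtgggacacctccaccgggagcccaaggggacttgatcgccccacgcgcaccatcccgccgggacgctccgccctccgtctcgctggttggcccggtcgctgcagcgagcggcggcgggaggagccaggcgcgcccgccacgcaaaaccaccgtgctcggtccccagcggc
Slc3a1: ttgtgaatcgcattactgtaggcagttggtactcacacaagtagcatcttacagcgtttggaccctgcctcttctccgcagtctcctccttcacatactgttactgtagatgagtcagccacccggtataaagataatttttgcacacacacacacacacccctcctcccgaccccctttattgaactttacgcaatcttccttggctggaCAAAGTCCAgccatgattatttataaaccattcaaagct
Capitals mark the letters CAAAGTCCA, a core of sites bound by HNF4 factors, which drive many proximal tubule genes. These letters, searched on both strands, stood in 126 of 32851 windows (0.384%), and among the tested members with a window in 1 of 18, Slc3a1. The letters GTTAAT, the core of an HNF1 site and without overlap with the first motif, were found on either strand in 6.43% of all windows. They stood in 6 of 46 members with a window and in 4 of the 18 tested ones, namely Slc36a1, Slc6a13, Slc6a20a and Slc7a7. For both motifs a member counted if any of its windows held the letters, with 65 windows for the 46 members. Shares of members and of windows are thus unlike counts, and no enrichment is read from them. Neither motif stood in the Slc1a1 window.

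On the basolateral side, 2 light chains of 4F2hc were lower in 1 mutant genotype each, and the heavy chain itself did not pass. Slc7a7 (y+LAT1) releases dibasic amino acids to the blood and is mutated in lysinuric protein intolerance. It measured 9.37, 8.12 and 10.56 in single mutants 1 to 3 and 9.88, 10.25 and 9.57 in double mutants 1 to 3, against 10.48 and 10.66 in wild type. The double mutants lay below wild type, and the single mutants spread over the widest range, with the male lowest and single mutant 3 between the wild type mice. Slc7a7 was 3.99-fold lower in the single mutant when sex was modelled (SE 0.48 on the log2 scale, adjusted p = 0.0232), and the double mutant differed by -1.45 (SE 0.48, adjusted p = 0.0618). The log2 differences without the sex term were -1.22 and -0.67 (adjusted p = 0.251 and 0.527). Slc7a8 (LAT2) exchanges neutral amino acids. Its level was 9.70, 8.73 and 11.40 in the single mutants and 10.21, 9.65 and 8.47 in the double mutants, against 10.59 and 9.94 in wild type. Single mutant 3 was the highest array and the 2 male mutants the lowest, and the groups overlapped. With the sex term the differences were -1.41 (SE 0.55, adjusted p = 0.0879) in the single and -1.92 (SE 0.55, adjusted p = 0.0405) in the double mutant. Without it they were -0.32 and -0.82 (adjusted p = 0.813 and 0.55). Slc3a2, the 4F2hc heavy chain, measured 9.62 to 10.44 in single and 9.97 to 10.17 in double mutants, against 10.35 and 10.11 in wild type, with differences of -0.44 (adjusted p = 0.19) and -0.39 (adjusted p = 0.247).

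Slc43a2 (LAT4) is a uniporter that lets neutral amino acids out at the basolateral membrane. It measured 7.71, 7.52 and 8.09 in single mutants 1 to 3 and 8.41, 7.89 and 7.45 in double mutants 1 to 3, against 8.18 and 8.28 in wild type. All single mutants lay below wild type, and double mutant 1 lay above it. When sex was modelled, the single mutant was lower by -0.82 (SE 0.23, adjusted p = 0.0362) and the double mutant differed by -0.68 (SE 0.23, adjusted p = 0.0669). Without the sex term these differences were -0.46 and -0.31 (adjusted p = 0.338 and 0.532).

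Among the 6 tested genes of the group of Slc36 carriers with Slc6a18, Slc6a19, Slc6a20a and Slc6a20b, 5 had lower fitted levels in both mutants and 1, Slc6a20a, passed. The exception was Slc36a4, with differences of 0.16 in the single and 0.68 in the double mutant with the sex term. Slc6a20a (SIT1) carries proline and hydroxyproline. It measured 8.78, 7.68 and 8.20 in single mutants 1 to 3 and 7.80, 8.14 and 7.90 in double mutants 1 to 3, against 8.52 and 8.80 in wild type. All double mutants lay below wild type, and single mutant 1 lay between the wild type mice. Slc6a20a was lower in the double mutant, by -1.01 with the sex term (SE 0.29, adjusted p = 0.0419) and the single mutant differed by -0.74 (SE 0.29, adjusted p = 0.0924). Without that term the single mutant differed by -0.44 and the double mutant by -0.71 (adjusted p = 0.371 and 0.215). Slc6a19 (B0AT1), the main neutral amino acid carrier of the brush border, is added here after its values were seen. Its level was 8.84, 7.24 and 9.76 in the single mutants and 8.59, 8.22 and 8.79 in the double mutants, against 9.81 and 9.74 in wild type. The double mutants were all below wild type and single mutant 3 was level with it. The differences of -1.72 (SE 0.63, adjusted p = 0.0766) and -1.81 (SE 0.63, adjusted p = 0.0701) did not pass with the sex term. Slc6a20b, a proline carrier and close copy of Slc6a20a, ranged from 6.41 to 8.95 with overlap of all groups, and Slc6a18 and the proton-coupled Slc36a1 differed by -0.47 and -0.25 in the single and by -0.53 and -0.31 in the double mutant without passing.

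Of the 3 tested carriers of osmolytes, creatine and GABA, Slc6a13 was lower. Slc6a13 (GAT2), a carrier of GABA and taurine, measured 8.71, 7.76 and 9.01 in single mutants 1 to 3 and 8.21, 8.71 and 8.03 in double mutants 1 to 3, against 9.01 and 8.62 in wild type. The males of both mutants were the lowest arrays, and females overlapped wild type. When sex was modelled, the double mutant was lower by -1.01 (SE 0.28, adjusted p = 0.0354) and the single mutant differed by -0.83 (SE 0.28, adjusted p = 0.0586). Without the sex term the double mutant differed by -0.50 and the single mutant by -0.32 (adjusted p = 0.45 and 0.605). Slc6a8, the creatine carrier, was below wild type on all 6 mutant arrays (10.06 to 10.62 and 10.29 to 10.48, against 10.78 and 10.66), without passing (-0.55, adjusted p = 0.0783, and -0.43, adjusted p = 0.149). Slc6a6, the taurine carrier, was above wild type on all mutant arrays (10.32 to 10.76 and 10.32 to 10.75, against 10.31 and 10.25), by differences of 0.02 and 0.06 with the sex term.

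Markers of the tubule segments were compared in the same fits. With the sex term all 9 proximal tubule markers had lower fitted levels in both mutants, 6 passed in the single and 5 in the double mutant, and their median difference was -1.17 and -1.16. The 6 markers of the loop of Henle and distal tubule were also all lower in fitted level, with medians of -0.28 and -0.55 and 2 past the threshold in each mutant. So were the 7 of the collecting duct, with medians of -0.39 and -0.89 and 1 and 3 past the threshold. Without the sex term all 9 proximal tubule markers were still lower in both mutants, with medians of -0.52 and -0.55. The loop of Henle and distal tubule then had medians of 0.18 and -0.06, with 5 of 6 markers higher in the single mutant. Those of the collecting duct were -0.09 and -0.26. The part of these markers in the carriers' differences was not tested.

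The 1 member that passed as higher was Slc38a1, in the double mutant with the sex term (1 of 28, where 6.4% of all genes were higher). Slc38a1 (SNAT1), which takes up glutamine, measured 6.65, 6.83 and 6.62 in single mutants 1 to 3 and 7.00, 7.09 and 6.71 in double mutants 1 to 3, against 6.14 and 6.15 in wild type. All mutants of both sexes lay above wild type. The mean of Slc38a1, 6.65, lay just above the filter at 6.64, and both wild type values lay below the filter. That this gene was tested thus rests on its higher levels in the mutants. Slc38a1 was 1.68-fold higher in the double mutant with the sex term (difference 0.75, SE 0.17, adjusted p = 0.0226), and the fit of the 3 genotypes gave 0.79 (SE 0.15, adjusted p = 0.0688). In the single mutant the differences were 0.51 (SE 0.17, adjusted p = 0.0617) and 0.56 (SE 0.15, adjusted p = 0.119). Slc1a5 (ASCT2), an exchanger of glutamine and small neutral amino acids, is named here after its values were seen. Its level was 7.96, 8.06 and 7.75 in the single mutants and 7.98, 8.05 and 7.68 in the double mutants, against 7.42 and 7.16 in wild type. Here too all mutants lay above wild type, by 0.59 (SE 0.20, adjusted p = 0.0622) in the single and 0.57 (SE 0.20, adjusted p = 0.0706) in the double mutant with the sex term. A dimmer second probe set of Slc1a5 overlapped, at 5.40 to 5.49 in single and 5.51 to 5.71 in double mutants, against 5.57 and 5.47 in wild type. Slc38a2 (SNAT2), known to be induced by amino acid lack and by high tonicity, differed by 0.79 (adjusted p = 0.0889) and 0.94 (adjusted p = 0.059). After quantile normalization or cyclic loess, Slc1a5, Slc38a1 and Slc38a2 were past the threshold in both mutants with the sex term, a share of the members near or below the shares of higher genes given above. With the sex term 6 of 7 macrophage and 5 of 7 fibroblast markers passed as higher in each mutant, and their part in these higher levels was not tested.

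**Figure D3:**
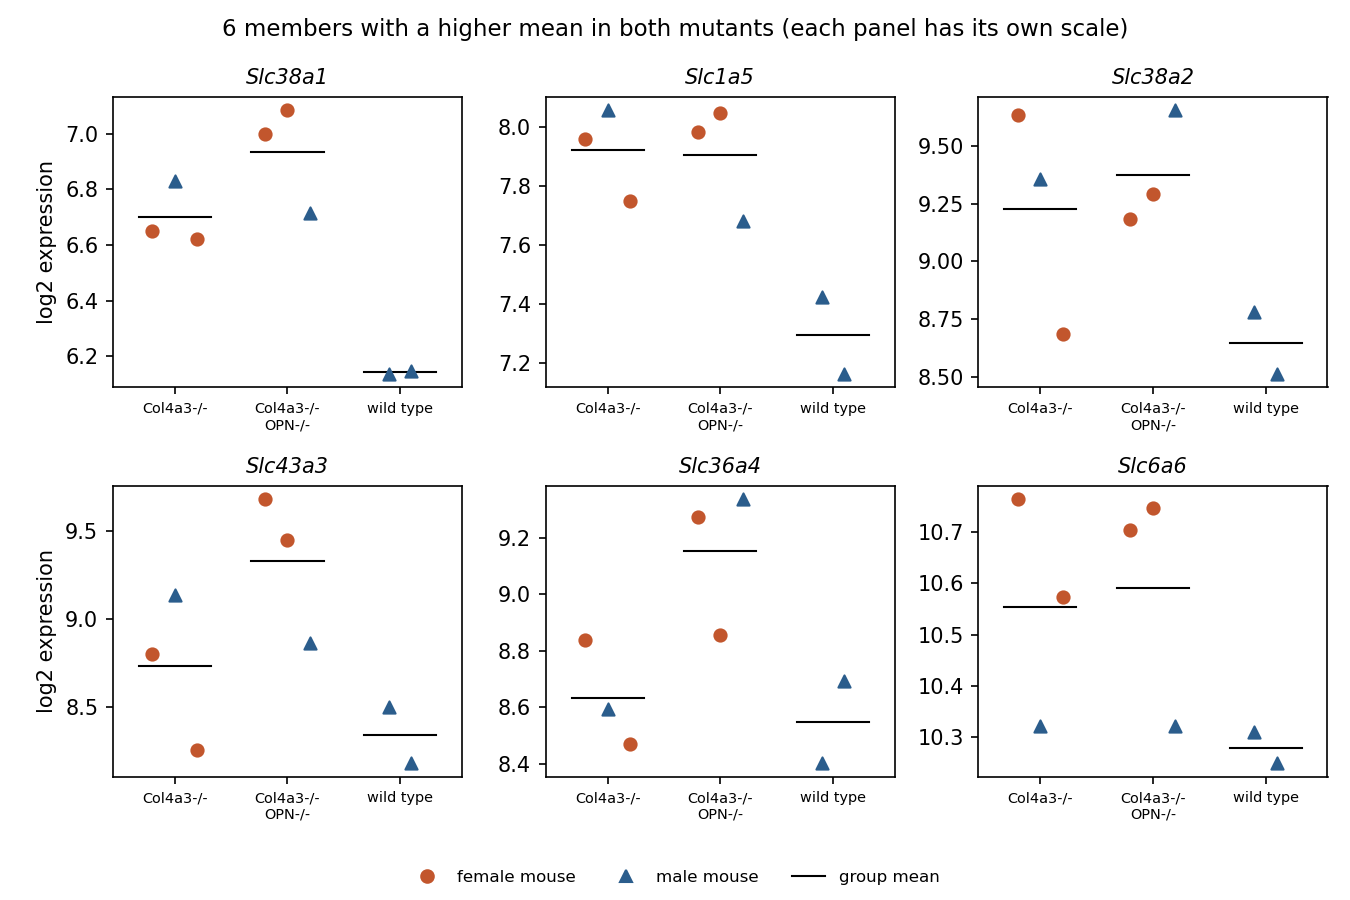
Levels (log2 expression, each panel on its own scale) of 6 members in Col4a3-/-, Col4a3-/-OPN-/- and wild type kidneys, 1 point per array, with female mice as circles, male mice as triangles and lines at the group means. In Slc38a1, Slc1a5 and Slc6a6 all 6 mutants lie above both wild type mice, and in Slc36a4 the double mutants lie above the single mutants.

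Members whose groups did not overlap were counted without any model. All 6 mutants lay above both wild type mice in 3 of 28 members (Slc1a5, Slc38a1 and Slc6a6), as in 13.1% of all genes tested, and below both in 4 (Slc1a1, Slc36a1, Slc6a8 and Slc7a13), as in 21.4%. Among the males, the 2 mutants lay below both wild type mice in 18 of 28 members, where 47.5% of all genes did so, and above both in 5, where 24.9% did. The higher male mutant members were Slc1a5, Slc38a1, Slc38a2, Slc43a3 and Slc6a6. Each male mutant group is 1 mouse, and single mutant 2 and double mutant 3 each stand apart in some markers, so these values describe 2 mice. A fit of the 4 males can only assume that the lone mutants vary like the wild type mice. It gave 1 higher and 12 lower members in the single mutant (7.89% and 15.3% of all genes) and 1 higher and 5 lower in the double mutant (3.55% and 6.62%), and nothing is read from these counts.

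The loss of osteopontin on top of Col4a3 moved no member past the threshold. In the double against the single mutant, 0 of 28 members were higher and 0 lower with limma in either fit, as were 0% and 0% of all genes. At an unadjusted p under 0.05 there was 1 higher member and no lower one without the sex term, beside 0.882% and 0.574% of all genes. The median difference of the members was 0.03, beside 0.0013 over all genes. The 3 members with the smallest p are given with their values. Slc36a4 (PAT4), a carrier of proline and tryptophan, measured 9.27, 8.85 and 9.34 in double mutants 1 to 3, against 8.84, 8.59 and 8.47 in single mutants 1 to 3. All double mutants lay above all single mutants, by a mean of 0.52 (SE 0.17, 95% interval 0.12 to 0.92, adjusted p = 0.993 with the sex term). The dimmer second probe set of Slc36a4 measured 6.56, 6.65 and 6.45 in double and 6.57, 6.48 and 6.28 in single mutants, with overlap. Slc43a3, known as a carrier of adenine, measured 9.68, 9.45 and 8.86 in double mutants, against 8.80, 9.14 and 8.26 in single mutants, and the groups overlapped. Its difference was 0.60 (SE 0.28, adjusted p = 0.993). Slc38a10 (SNAT10), which spanned a narrow range on the 8 arrays, measured 7.34, 7.46 and 7.38 in double mutants, against 7.53, 7.56 and 7.66 in single mutants, a difference of -0.19 (SE 0.10, adjusted p = 0.993). Slc36a4 was the 1 member with all double mutants above all single mutants, beside 2.02% of all genes, and Slc38a10 the 1 member with all below, beside 3%. For Slc1a1 and Slc3a1 the 95% intervals of the double minus single difference were -0.37 to 0.42 and -0.25 to 0.46. For Slc6a19 it was -1.19 to 1.02, so that a change of about 1 in either direction lies within it.

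Between the sexes the difference of the double from the single mutant varied, and no interaction passed. The difference had the opposite sign in males (1 against 1 mouse) and females (2 against 2) in 19 of 28 members, as in 56.8% of all genes, and in 13 of the 19 the double mutant was higher in males and lower in females. One of the 19 is Slc6a6, whose differences were near 0, at -0.0006 and 0.06. Slc6a19 differed by 1.55 in males and by -0.90 in females, Slc7a9 by 0.97 and -0.61, and the reverse held for Slc43a3 with -0.28 and 1.04. The interaction of sex and genotype passed for 0 members and for 0% of all genes in either direction, and the smallest adjusted p values were 0.0591 for Slc7a9 and 0.102 for Slc6a19. Each of these rests on 1 male per genotype. Single mutant 2 is also the array with the lowest proximal tubule markers, and double mutant 3 that with the lowest collecting duct markers. The 9 proximal tubule markers had a median double minus single difference of 0.98 in males and of -0.35 in females, while that of the 7 macrophage markers was -0.61 and 1.08 and that of the 7 fibroblast markers -0.88 and 0.85. Their part was not tested.

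**Figure D4:**
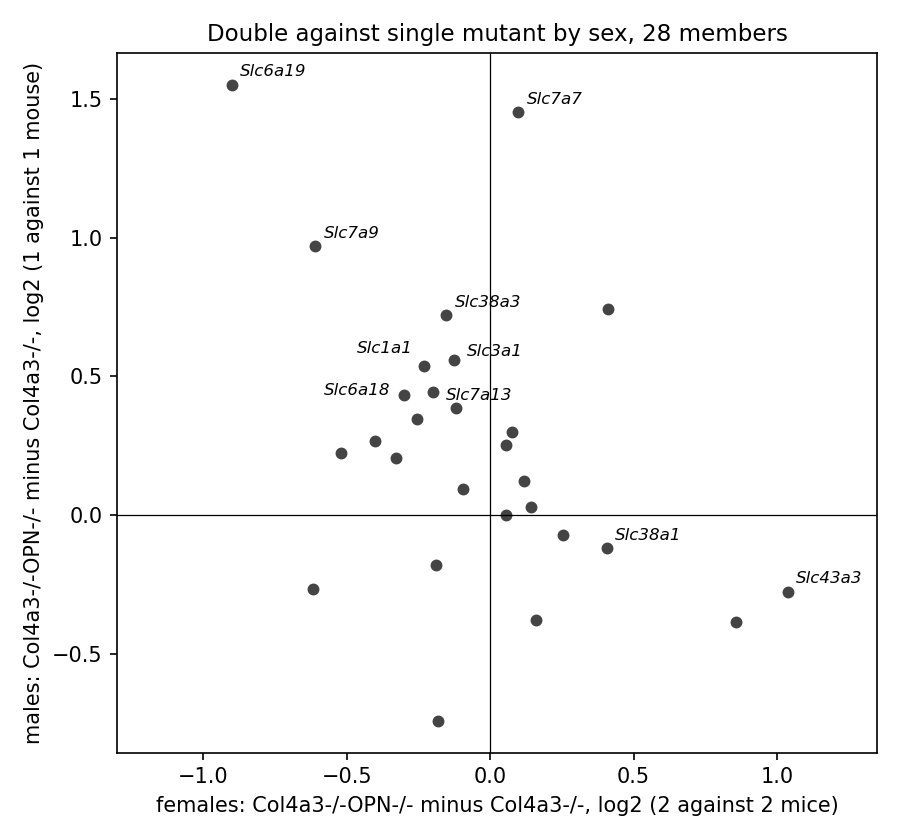
Double minus single mutant difference (log2) of the 28 tested members in females (horizontal axis, 2 against 2 mice) and in males (vertical axis, 1 against 1 mouse), 1 point per gene, with the 10 genes of smallest interaction p named. Of the 28 points, 13 lie in the upper left, higher in double mutant males and lower in double mutant females, and 6 in the lower right.

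Mutant females and mutant males differed in 6 members, and a pair of Slc7 light chains did so in opposite directions. With genotype in the model, 5 of 28 members were higher and 1 was lower in females than in males, where 8.22% and 1.97% of all genes were. The fitted difference was above 0 in 23 of 28 members, with a median of 0.38 beside 0.09 over all genes. The 1 lower member was Slc7a13, whose values stand above, with a female minus male difference of -4.40 (SE 0.19, adjusted p = 7.41e-05). As stated above, the place of Slc7a13 among the tested genes rests on its levels in wild type. The female levels of 4.78 to 5.30 lie near the array medians, so that the size of this difference has only a lower bound. It passed under all 17 other settings tried for this comparison, leaving out each array included.

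Slc7a12 (Asc-2), a relative of the light chains that is known in the mouse kidney for a higher level in females, was the opposite case. In females it measured 11.53 and 11.71 in single mutants 1 and 3 and 11.33 and 11.55 in double mutants 1 and 2. In males it measured 6.29 in single mutant 2 and 5.55 in double mutant 3, against 9.73 and 6.24 in wild type 1 and 2. All females lay above all males, and wild type 1 stood apart from the other males. The female minus male difference was 5.61 (SE 0.79, adjusted p = 0.00945). Its difference from wild type turned with the model, at 1.86 and 1.49 without the sex term and -1.88 and -2.25 with it in the single and the double mutant, and it passed in none of these 4 (adjusted p = 0.624, 0.729, 0.18 and 0.126).

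**Figure D5:**
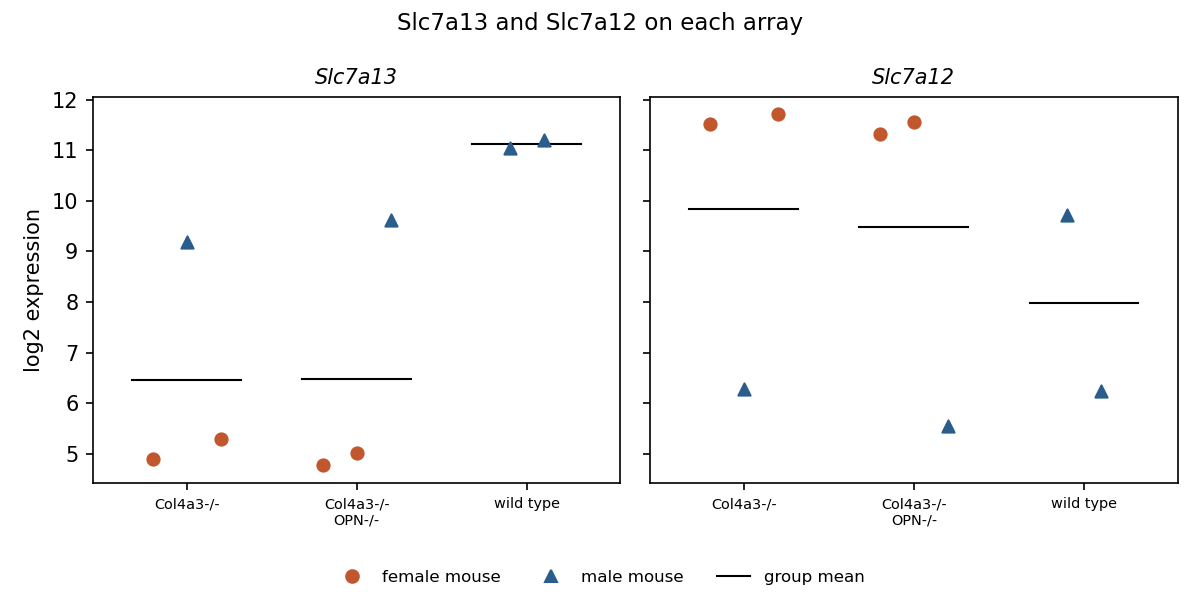
Levels (log2 expression) of Slc7a13 and Slc7a12 in Col4a3-/-, Col4a3-/-OPN-/- and wild type kidneys, 1 point per array, with female mice as circles, male mice as triangles and lines at the group means. Slc7a13 is high in the males and lies below wild type in the mutant males, at 9.18 and 9.62 against 11.05 and 11.20, and Slc7a12 is high in the females.

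Slc38a3, Slc3a1, Slc1a1 and Slc6a18 were the other members higher in mutant females than in mutant males. Their female minus male differences were 1.21 (SE 0.20, adjusted p = 0.014), 0.90 (SE 0.16, adjusted p = 0.0189), 0.71 (SE 0.18, adjusted p = 0.0469) and 0.70 (SE 0.18, adjusted p = 0.0479). Slc6a18 (XT2), a brush-border carrier of glycine and other neutral amino acids in the late proximal tubule, measured 11.07 and 10.85 in the female and 9.89 in the male single mutants. In double mutants it measured 10.61 and 10.71 in females and 10.32 in the male, and in the male wild type mice 10.52 and 10.68. The mutant females lay above the mutant males in Slc6a18 as in 11 of 28 members, where 29% of all genes did so, and below them in 1, where 10.8% did. The wild type males did not share these low male levels: they lay above all females in Slc1a1, were level with the females in Slc3a1 and Slc38a3, and lay between the mutant males and the single mutant females in Slc6a18. Slc1a1 and Slc6a18 kept this direction but did not pass under 15 of the 17 other settings tried for each. Without single mutant 2 the only member that passed was Slc7a13, without single mutant 3 there were 3, and without double mutant 3 there were 10. The shares of all genes in these fits are not given here. Proximal tubule markers were also higher in mutant females, with a median difference of 0.83 and 3 of 9 past the threshold. So were those of the loop of Henle and distal tubule (0.74, 3 of 6), the collecting duct (0.63, 2 of 7), podocytes (0.65, 1 of 3) and endothelium (0.39, 1 of 6), while macrophage markers had a median of -0.76 and fibroblast markers of -0.07, with 0 of 7 past the threshold each. Their part was not tested.

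Genes that work with the carriers were taken from lists of partners and of amino acid signalling. Of 9 measured partners and carriers of peptides and aromatic amino acids, 5 were tested, and with the sex term 4 were lower in the single and 3 in the double mutant. Slc15a2, the brush-border peptide carrier, was lower by -1.45 (adjusted p = 0.00572) and -1.53 (adjusted p = 0.00407). Anpep, an aminopeptidase of the same membrane, was lower by -1.10 (adjusted p = 0.0162) and -0.96 (adjusted p = 0.0252), and Slc16a10, a basolateral carrier of aromatic amino acids, by -0.88 (adjusted p = 0.0188) and -0.90 (adjusted p = 0.0189). Cltrn (collectrin), which brings Slc6a19 to the brush border, was lower in the single mutant by -0.93 (adjusted p = 0.0426) and differed by -0.82 (adjusted p = 0.0636) in the double mutant. No partner passed without the sex term. Slc15a2 and Slc16a10 were also higher in mutant females than in mutant males, by 1.43 and 0.68.

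Genes of the amino acid response driven by ATF4, which includes several carriers among its targets, mostly did not pass. Of 14 measured genes 9 were tested. Nupr1, a stress-induced regulator, was higher in the single and the double mutant by 1.66 and 1.92 with the sex term (adjusted p = 0.00532 and 0.00406) and by 1.71 and 1.98 without it. Atf3 was higher in the double mutant by 1.56 (adjusted p = 0.0273) with the sex term. Without it Atf3 differed there by 0.83 (adjusted p = 0.389). Atf4 itself differed by 0.05 and 0.03 without the sex term and by 0.20 and 0.18 with it, without passing. With the sex term 4 of the 9 genes had higher and 5 had lower fitted levels in each mutant. Among 4 tonicity response genes Nfat5, the factor that induces the taurine and betaine carriers, was higher by 0.97 (adjusted p = 0.0143) and 0.90 (adjusted p = 0.0186) with the sex term. Without it Nfat5 differed by 0.86 and 0.79 and did not pass (adjusted p = 0.082 and 0.077). With the sex term the others of this list had lower fitted levels in both mutants and did not pass. Their differences were -0.39 and -0.67 for Aqp2, -0.30 and -0.24 for Hspa4l, and -0.60 and -0.31 for Slc14a2. Of 18 measured genes of amino acid sensing by mTORC1, 13 were tested, and 1, Mtor, was lower in the double mutant by -0.72 (adjusted p = 0.0283) when sex was modelled. Without the sex term Mtor differed there by -0.84 (adjusted p = 0.0691).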

How the data were processed

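Expression was measured in 8 kidneys with 1 array each. The labels name an RNA labelling kit for small RNAs, while the probe sets are those of a gene array. The values are log2 expression as deposited by the authors, read as log2 from their range of 4.20 to 13.43. The sources used here do not give their normalization, summarization or genome build. The number of arrays limits the precision, and p values measure the spread between mice.

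Probe sets that named 1 gene were used (23521 of 33793, with 1814 naming several and 8458 none), and the highest mean was kept for each gene. For 3 members (Slc38a10, Slc1a5 and Slc36a4) this left out a dimmer probe set. The probe set shared by Slc6a9 and another gene was not named, and 1 gene of the Slc7a family is not reported here. All 63 symbols matched RefSeq. The 7145 genes above the 75th percentile were tested with limma 3.58.1 in R 4.3.3 (lmFit and eBayes, two-sided, Benjamini-Hochberg over all tested genes, called under 0.05). Fits used the 3 groups (5 residual degrees of freedom), the groups and sex (4), group by sex (3), the 4 males (1) or the 4 females of the mutants (2). Sex was read from Xist, Uty, Kdm5d and Eif2s3y. The fit was tested on simulated data.

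Members, lists, tests and the sex term were chosen with earlier results of these data known. Full values are given for members called in a fit, for the 3 with the smallest p between the mutants and for those called between the sexes. The other settings were no filter or a filter at the 50th percentile, 3 scalings (quantile, cyclic loess and median centring), array weights, a robust prior with an intensity trend, the mean of a gene's probe sets, only the groups compared, males alone, the replicate number as a block, and leaving out each array. Females alone and the settings of the interaction were added after the data were seen. Promoter windows of 250 bases come from RefSeq (GRCm38.p6), with an entry for 46 of 63 members. Python 3.11.15 and matplotlib 3.10.9 were used for the plots.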

Additional observations from a re-analysis of the deposited data

How the results depend on the processing

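Without the sex term, 0 members passed in the single mutant against wild type, while 3 passed with array weights and 13 among males alone, a fit in which each mutant group is 1 mouse assumed to vary like wild type. In the double mutant 0 passed, against 1 with no filter, 6 with array weights, 6 among males alone, 2 with only the groups compared and 0 to 3 when each array was left out. With the sex term, 6 passed in the single mutant (11 with the replicate block, 0 to 12 with each array left out) and 8 in the double mutant (4 with no filter, 5 with array weights, 13 with the replicate block, 1 to 13 with each array left out). Between females and males 6 passed, with 1 under no filter and 1 to 10 with each array left out. Double against single mutant and the interaction gave 0 under every setting run. The shares of all genes for males alone stand above. For most of the other settings they are not given here, and nothing particular to the members is read from these counts. Slc43a3 reversed in double against single mutant among males alone, at -0.28 (adjusted p = 0.781). Of the other values of named members under these settings, 450 kept their direction and their side of the threshold, 101 kept the direction and no longer passed, and 11 passed that had not. Whether the replicate numbers pair the mice cannot be decided here. Same-numbered arrays correlated in their deviations from the group means by -0.58 to 0.26 (7 pairs) and other arrays by -0.45 to 0.54 (14 pairs). These deviations also hold the sex of the mice, and those of the 2 wild type mice mirror each other. The causes of these shifts were not tested. The 8 arrays and the absence of wild type females limit all comparisons.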

Other observations

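Some members below the filter differed between the genotypes when the filter was relaxed to the 50th percentile, and they are named here after their values were seen. Slc7a6 (y+LAT2), a 4F2hc light chain, measured 6.54, 6.57 and 6.42 in single mutants 1 to 3 and 6.58, 6.64 and 6.57 in double mutants 1 to 3, against 5.88 and 5.83 in wild type. All mutants lay above wild type, and Slc7a6 passed as higher in both mutants with the sex term. Slc7a1 (CAT1), a carrier of arginine and lysine, measured 6.21, 6.47 and 6.30 in single and 6.62, 6.83 and 6.54 in double mutants, against 6.13 and 5.78 in wild type. Slc7a5 (LAT1) is the light chain that supplies growing cells with leucine. Its level was 6.44, 6.67 and 6.21 in single and 6.46, 6.45 and 6.78 in double mutants, against 6.33 and 5.79 in wild type. Slc7a1 and Slc7a5 passed as higher in the double mutant under that filter, for which the share of all genes is not given here. Slc7a2 (CAT2), another carrier of dibasic amino acids, was highest in single mutant 2, at 6.60 against 5.31 and 5.04 in the other single mutants and 5.19 and 4.96 in wild type. It has no test at the main filter.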
